A study of Mus musculus with 32 samples.

Results

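The genes of the conducting airway were followed through the lungs of mice with and without a mammary tumor. They are 9 genes chosen by name, out of 29511 with a row in the count table. Of these, 5 are secretory genes (Scgb1a1, Scgb3a2, Cyp2f2, Scgb3a1 and Bpifa1) and 4 mark ciliated cells (Foxj1, Dnah5, Ccdc39 and Tppp3). All 9 passed the filter on low counts and were tested with the 16029 genes of the lungs.

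The hosts were virgin female FVB/N mice, 6 to 8 weeks old at use, either wildtype (WT) or knockout (KO) for Clic4, a chloride intracellular channel protein. The 14-day lungs came from 6 KO and 6 WT mice in which a tumor had grown for 14 days from 6DT1 cells placed in a mammary fat pad, a mouse mammary tumor line that keeps its own Clic4. KO and WT mice were littermates from crosses of heterozygous animals, and the deletion is in the whole host, not in the injected cells. The control lungs came from 4 KO and 4 WT mice at baseline, without a tumor, and the 14-day primary tumors of 6 KO and 6 WT hosts served here only as a tissue without airways. The lungs were divided into lobes before freezing, and which lobe each library came from is not given in the sources used here. Whole tissue was sequenced, so fewer cells of a type and less RNA per cell cannot be told apart.

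The conducting airway is lined by 2 main kinds of epithelial cell. Club cells secrete proteins of the secretoglobin family and carry cytochrome P450 enzymes that handle inhaled compounds, and after injury they renew the bronchiolar lining. Ciliated cells carry motile cilia that beat mucus upward. Their program is switched on by the forkhead factor Foxj1, and each cilium is built on an axoneme of microtubules with dynein arms and radial spokes. In the mouse, basal cells and cartilage are found mainly in the trachea and largest bronchi.

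Gene counts summed to 4567220 to 8318711 in a lung. The counts of replicate lungs differed by more than sampling noise in all 42 pairs (chi-squared over its degrees of freedom 2.55 to 10.2). Clic4 stood at 603 to 882 CPM (counts relative to library size, scaled by the TMM method of edgeR) in WT lungs and at 210 to 287 in KO lungs, with no overlap. None of 7 basal cell genes (Krt5 and Trp63 among them) and 1 of 9 cartilage genes passed the filter on low counts, and the basal gene with the highest level, Dapl1, had 0.53 to 4.48 FPKM (a level scaled for both transcript length and depth). Libraries also differed in how counts followed the GC content of transcripts. The slope of log2 CPM on GC was above 0 in 4 of 4 WT control lungs (0.26 to 1.58), in 1 of 4 KO control lungs (-1.24 to 0.21), in 2 of 6 WT 14-day lungs and in 2 of 6 KO 14-day lungs.

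Levels per length of transcript spanned more than 3 orders of magnitude and were led by the club cell genes. Scgb1a1, which encodes the main secreted protein of club cells, had 24060 FPKM ± 1702 (SD, n = 20 lungs) and ranked 5th of 29434 symbols. Scgb3a2, a related secretoglobin, had 858 FPKM ± 102, and Cyp2f2, the P450 enzyme that activates naphthalene in club cells, had 485 ± 38. Scgb3a1, a secretoglobin of the larger airways, had 296 FPKM ± 63.6. Tppp3, a microtubule-binding protein of ciliated and some other cells, had 172 ± 18.2 FPKM. These levels did not overlap between Scgb1a1, Scgb3a2, Cyp2f2 and Scgb3a1, whereas the highest Tppp3 lung (203 FPKM) lay above the lowest Scgb3a1 lung (175 FPKM).

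The other members were far lower. Bpifa1, a secreted defense protein of the nasal and upper airway epithelium, ranked 1877th with 37.4 FPKM ± 26.4 and ranged from 1.37 to 95.05. Foxj1 had 12.4 FPKM ± 2.12, Ccdc39, a molecular ruler that sets the spacing of axonemal complexes, had 9.63 ± 2.29, and Dnah5, the heavy chain of the outer dynein arm, had 7.16 ± 0.711. These last levels overlapped between neighbours in the order, and all of them overlapped with Bpifa1. In counts rather than per length, Dnah5, whose transcript is the longest of the members at 15637 bases, had 500 to 821 counts per lung, whereas Foxj1 had 131 to 263 and Ccdc39 80 to 135. Scgb1a1 alone took 0.568 to 0.728% of all counts of a lung.

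Within the TMM CPM scale, Scgb1a1, Cyp2f2 and Ccdc39 lay in overlapping ranges in all 4 groups. Scgb1a1 was at 5945, 5853, 6580 and 6574 CPM in WT control lungs and at 5737, 6128, 6903 and 7115 in KO control lungs. In the 14-day lungs it ran from 6090 to 7380 in WT and from 5671 to 7212 in KO. The 14-day ranges overlapped with the control values in both genotypes. Cyp2f2 ran from 691 to 828 CPM in WT control lungs, 736 to 821 in KO control lungs, 726 to 903 in WT 14-day lungs and 710 to 915 in KO 14-day lungs. Ccdc39 ran from 14.5 to 18.9, 15.3 to 20.5, 14.8 to 23.4 and 16.95 to 20.33 CPM in the same order.

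**Figure D1:**
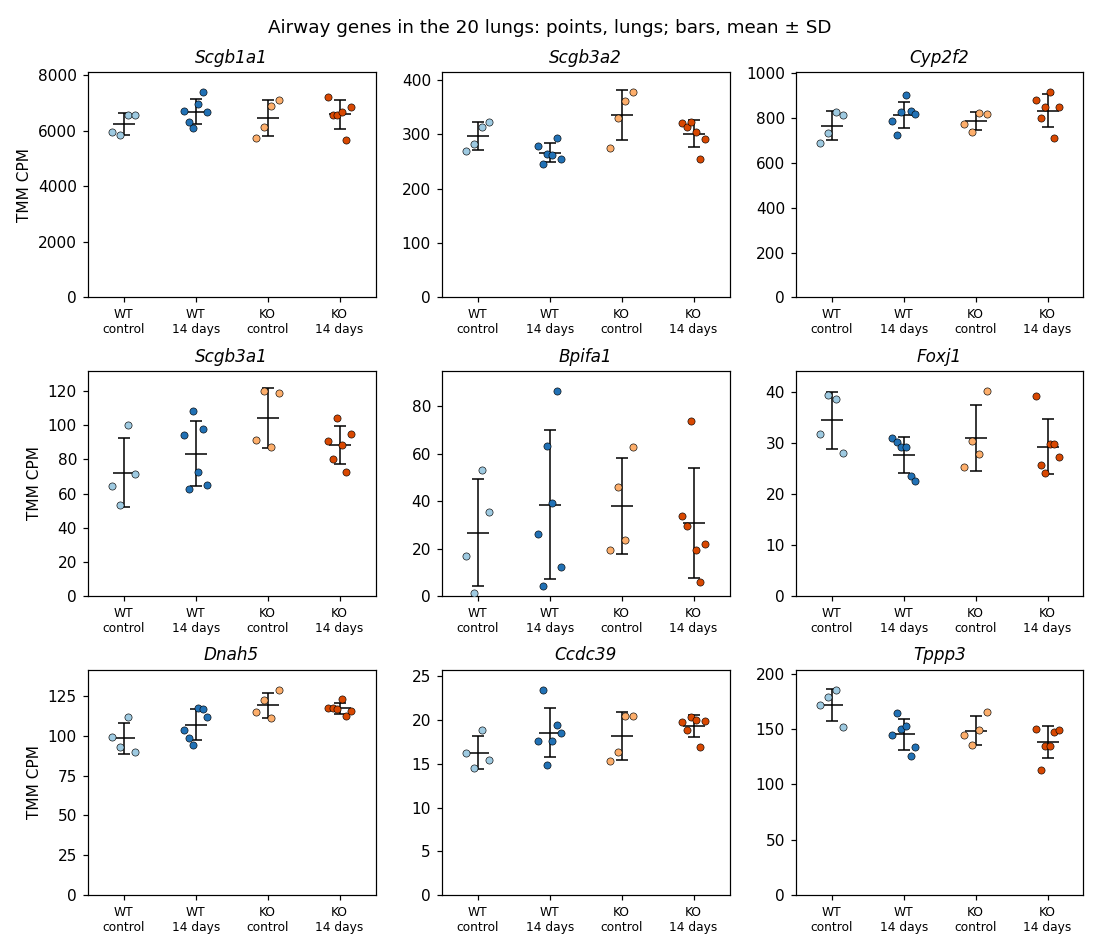
TMM-scaled CPM of the 9 genes (y axes, each starting at 0) in the 4 lung groups (x axes), with 1 point per lung and bars for mean and SD. Most genes stay within a narrow band in all groups, while Bpifa1 runs from 1.27 to 86.4 CPM.

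The tumors show what the genes look like in tissue without airways. All 9 genes passed an FDR of 0.05 with at least a 2-fold higher level in the 12 14-day lungs than in the 12 tumors (edgeR, quasi-likelihood test), against 21.7% of the 16115 genes tested. Nothing is read from that count, since the genes were named as airway genes and all but Tppp3 passed the filter on low counts through the lungs. Of these, 5 had 0 to 2 counts over all tumors, and none had more than 12 counts in a tumor. Scgb3a2 and Bpifa1 had 0 counts in all 12 tumors. Read against 3 counts over the 12 tumors, lungs were at least 5940-fold higher for Scgb3a2 and at least 751-fold higher for Bpifa1. Scgb1a1 had a single count in the tumors against 445624 in the lungs, and Dnah5 a single count against 7515. For Dnah5 the ratio of CPM was 7016, with a 95% counting interval of 1259 to 277200, and for Scgb3a1, with 2 counts in the tumors, it was 2721 (753 to 22470). Such intervals cover counting error only.

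The remaining 4 genes were detected in tumors as well. Cyp2f2 had 80 counts spread over all 12 tumors and was 648-fold higher in lungs, and Foxj1 was 73.9-fold higher. Ccdc39 was 34.8-fold higher. Tppp3 had 834 counts over the 12 tumors and was only 10.6-fold higher in lungs, which made it the least lung-restricted of the 9 genes by this ratio.

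The first question was whether a distant tumor changes these genes in the lung. In WT mice, none of the 9 genes passed both limits, an FDR under 0.25 and at least a 1.5-fold change, between 14-day and control lungs, in a test that called 0.574% of all genes, and DESeq2 called none of the 9 either. At an unadjusted p under 0.05 there were 2, Foxj1 and Tppp3, against 11.8% of all genes, and at an FDR under 0.25 without a fold limit there were 0, against 2.33%. Tppp3 was at 172, 178, 185 and 152 CPM in the WT control lungs, and the 6 WT 14-day lungs ran from 126 to 165 with a median of 147. The 14-day lungs were lower in most cases, and the groups overlapped only through the highest 14-day lungs and the lowest control. The difference was -0.24 on the log2 scale (SE 0.08, FDR 0.262 by edgeR, n = 6 and 4).

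Foxj1 stood at 31.7, 39.5, 38.7 and 28.0 CPM in the WT control lungs. In the 6 WT 14-day lungs it ran from 22.7 to 31.1 with a median of 29.2, so both groups shared the range between 28.0 and 31.1. The log2 difference was -0.31 (SE 0.14, edgeR FDR 0.393). The other ciliated genes had differences of the opposite sign, 0.12 for Dnah5 (SE 0.07, FDR 0.506) and 0.19 for Ccdc39 (SE 0.12, FDR 0.542). Foxj1 and Tppp3 have a GC content of 61.4 and 57.0%, higher than 98.5 and 89.0% of the genes tested, and the GC slope was above 0 in all 4 WT control lungs and in 2 of the 6 WT 14-day lungs. With offsets for the GC trend of each library, the Foxj1 difference was -0.14 and that of Tppp3 was -0.15. The part of library composition in these differences was not tested beyond this.

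In KO mice the same comparison called none of the 9 genes by edgeR or DESeq2, against 0.262% of all genes. There were also 0 members at an unadjusted p under 0.05, where 8.64% of all genes fell, and 0 at an FDR under 0.25 without a fold limit, against 1.05%. The differences ran from -0.28 (Bpifa1, SE 0.67) to 0.09 (Ccdc39). That of Bpifa1 turned to 0.073 without KO control lung 4. Scgb3a2 differed by -0.15 (SE 0.08, FDR 0.619), and in WT mice by -0.16 (SE 0.08, FDR 0.462). No member separated the groups without overlap, either in KO lungs (2.18% of all genes did) or in WT lungs (2.98%).

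Averaged over both genotypes, 14-day lungs differed from controls in none of the 9 genes past both limits (edgeR and DESeq2), against 0.574% of all genes. At an unadjusted p under 0.05 there were 2, Scgb3a2 and Tppp3, against 12%. One of these, Tppp3, had an FDR under 0.25 without a fold limit, as did 4.80% of all genes. Its mean difference was -0.17 (SE 0.06, edgeR FDR 0.207), from a median of 159 CPM in the 8 control lungs to 146 in the 12 14-day lungs. With 1 lung left out the FDR ranged from 0.160 to 0.345 and was no longer under 0.25 for 9 of the 20 lungs left out. Scgb3a2 differed by -0.16 (SE 0.06, FDR 0.258). For 8 of the 9 genes the 95% interval of the averaged difference lay within a 1.5-fold change either way, and the exception was Bpifa1, with an interval from -0.85 to 1.12 on the log2 scale.

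**Figure D2:**
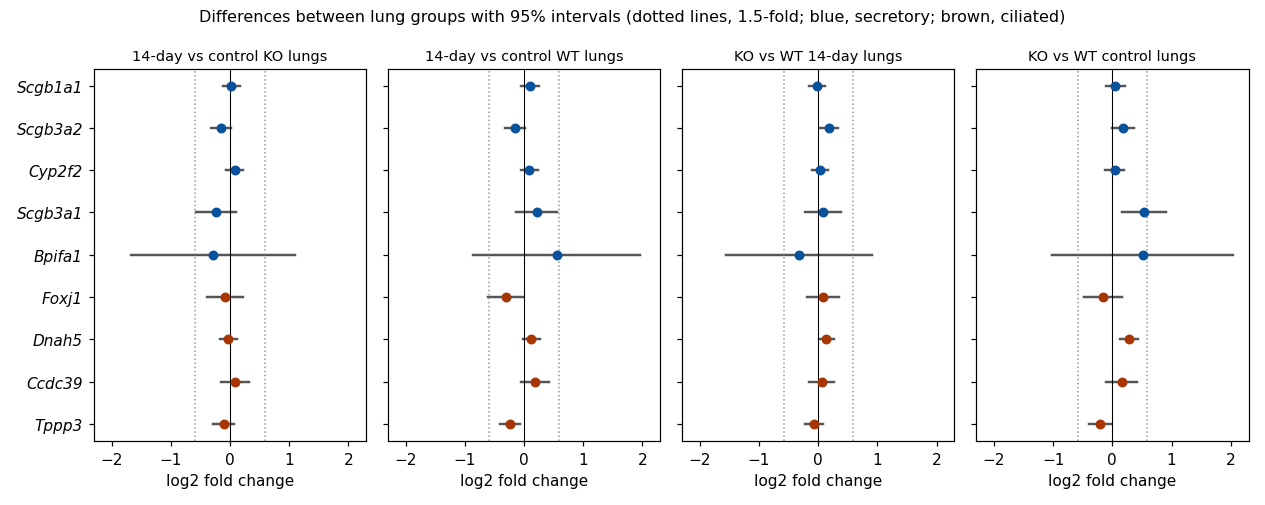
Log2 fold changes (x axes) of the 9 genes (y axis) in the 4 pairwise comparisons of lung groups, points with 95% intervals, dotted lines at a 1.5-fold change. Intervals are widest for Bpifa1, those of Foxj1 (14-day against control WT lungs) and Scgb3a1 (KO against WT control lungs) also reach past a 1.5-fold change, and no gene passed both limits.

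The second question was whether Clic4 loss in the host changes the airway genes. In control lungs none of the 9 passed both limits between KO and WT mice by edgeR or DESeq2, against 0.231% of all genes. An unadjusted p under 0.05 was found for 3, namely Scgb3a1, Dnah5 and Tppp3, where 11.6% of all genes fell. Without a fold limit, Dnah5 alone had an FDR under 0.25, against 0.973% of all genes. Dnah5 stood at 99.0, 92.9, 111.5 and 89.9 CPM in the WT control lungs and at 115, 122.5, 111.2 and 129 in the KO control lungs. The KO lungs lay above all but the highest WT lung, which overlapped with the lowest KO lung by a small margin. The log2 difference was 0.28 (SE 0.08, edgeR FDR 0.224), a 1.21-fold higher level in KO lungs. With 1 lung left out the FDR ranged from 0.174 to 0.517, and it was no longer under 0.25 for 11 of the 20 lungs left out, with the highest value without WT control lung 2.

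Scgb3a1 was at 64.4, 53.3, 100.2 and 71.3 CPM in the WT control lungs and at 91.2, 119.8, 87.1 and 118.9 in the KO control lungs. A single WT lung reached into the range of the KO lungs. With a log2 difference of 0.53 (SE 0.18), a 1.44-fold higher level, it was the closest of the 9 genes to the fold limit in this comparison, and its edgeR FDR was 0.291. With 1 lung left out the difference ranged from 0.42 (without WT control lung 2) to 0.72 (without the WT control lung at 100.2 CPM), and the FDR from 0.246 to 0.593. Tppp3 differed in the other direction, by -0.21 (SE 0.09, FDR 0.394), and by -0.06 with the GC offsets. Groups without overlap were not seen for any member, and were seen for 7.60% of all genes.

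In 14-day lungs the comparison of KO with WT called none of the 9 genes by edgeR or DESeq2, against 0.212% of all genes. An unadjusted p under 0.05 was found for 2, Scgb3a2 and Dnah5, against 8.34% of all genes, and an FDR under 0.25 without a fold limit for 0, against 0.861%. Dnah5 ran from 94.0 to 117.3 CPM in the 6 WT lungs, with a median of 107.6, and from 112.7 to 123.3 in the 6 KO lungs, with a median of 117.2. The ranges met in their upper and lower parts, and the difference was 0.13 (SE 0.06, FDR 0.582). Scgb3a2 had a median of 263 CPM in WT lungs (246 to 294) and of 309 in KO lungs (255 to 324), a difference of 0.18 (SE 0.07, FDR 0.509). The groups overlapped for every member, and 0.549% of all genes did not overlap.

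Averaged over both tumor states, KO lungs differed from WT lungs in none of the 9 genes past both limits by edgeR or DESeq2, against 0.237% of all genes. An unadjusted p under 0.05 was found for 4 members, Scgb3a1, Scgb3a2, Dnah5 and Tppp3, against 11.6% of all genes, and 2 of them, Dnah5 and Scgb3a2, had an FDR under 0.25 without a fold limit, against 2.18%. Dnah5 differed by 0.21 (SE 0.05, edgeR FDR 0.102) and was the 53rd gene of 16029 by p. Over both tumor states its level ran from 111.2 to 128.7 CPM in the 10 KO lungs and from 89.9 to 117.3 in the 10 WT lungs. With any 1 lung left out its FDR stayed between 0.0524 and 0.220. Scgb3a2 differed by 0.18 (SE 0.06) and lay just under the FDR limit, and above it with the GC offsets. With 1 lung left out its FDR ranged from 0.126 to 0.430 and lay above the limit for 15 of the 20 lungs left out. Scgb3a1 differed by 0.31 (SE 0.12, FDR 0.313) and Tppp3 by -0.14 (SE 0.06, FDR 0.371).

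The responses to the tumor did not differ between genotypes past an FDR of 0.25 for any member by edgeR or DESeq2, in a test that called 0.0499% of all genes. There were also 0 members at an unadjusted p under 0.05, against 8.53%. Bpifa1 had an interaction of -0.83 (SE 0.95, FDR 0.844), which ranged from -1.37 (without WT control lung 3) to -0.44 (without WT 14-day lung 5) with 1 lung left out. Scgb3a1 had one of -0.45 (SE 0.23, FDR 0.619), with a range from -0.63 to -0.33. Foxj1 had an interaction of 0.23 (SE 0.20), which was -0.09 with the GC offsets.

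Other genes of the same cells, taken from lists named with earlier results known, were read in the same fit. Of 30 other club and secretory genes (such as Cbr2, a carbonyl reductase, Aldh1a1, a retinaldehyde dehydrogenase, and Hp, haptoglobin, the highest 3 of the list by FPKM), all 30 were tested and none passed both limits in any of the 7 lung comparisons. Of 79 other ciliated cell genes tested, none did either. At an FDR under 0.25 without a fold limit, 2 of the 79 ciliated genes (2.53%) were higher in KO than in WT lungs over both tumor states, a share close to the 2.18% of all genes. They were Rsph4a, a radial spoke head protein, by 0.28 (SE 0.06, FDR 0.065), and Dnah12, an inner arm dynein, by 0.21 (SE 0.06, FDR 0.240). No other club or secretory gene of the list had such an FDR in the genotype average. In the tumor average, where 4.80% of all genes had one, 2 of 79 ciliated and 3 of 30 club or secretory genes did, in both directions. Armc4, which docks the outer dynein arm, had 0.44 (SE 0.13, FDR 0.149), and Aldh1a1 had 0.20 (SE 0.07, FDR 0.223), whereas Ak9, an adenylate kinase, had -0.23 (SE 0.07, FDR 0.18), and Krt7, a simple epithelial keratin, had -0.14 (SE 0.05, FDR 0.213).

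The differences of ciliated genes between genotypes were small and mostly above 0, as were those of some lists of other cells. Over both tumor states, 61 of the 79 genes (77.2%) had a value above 0, with a median of 0.09 on the log2 scale, against 48.9% of all genes tested, whose median was -0.003. The 29 genes of the axoneme and apical surface had 27 values above 0 and a median of 0.12. In control lungs 52 of the 79 values were above 0 with a median of 0.12, and in 14-day lungs 51 of 79 with a median of 0.03. With the GC offsets the count in the average was 62 of 79, against 52.3% of all genes. In the same average, 7 of 8 alveolar type 2 cell genes (median 0.09) and 6 of 6 smooth muscle genes (median 0.13) had values above 0. So did 3 of 3 goblet cell genes (median 0.05) and 2 of 2 neuroendocrine cell genes (median 0.24). Values were mostly below 0 for airway transcription factors and Notch pathway genes (3 of 13 above 0, median -0.06). The same held for alveolar type 1 cell genes (0 of 6, median -0.12), pan-epithelial genes (1 of 6, median -0.02) and cardiac muscle genes (1 of 6, median -0.35). Genes of a list share cells and libraries, so the counts are given as a description with no test. The 30 club and secretory genes had 23 values above 0 and a median of 0.06. Tppp3 was at -0.14, and at -0.075 with the GC offsets. Foxj1 was at -0.04 (SE 0.10), at 0.071 with the GC offsets, and at 0.0057 without KO control lung 1 and 0.00048 without WT control lung 2, so its direction was not settled. Of 8 regulators of multiciliation, 5 had a value above 0 in the average and 1 in control lungs. By contrast, the tumor average had 47 of 79 ciliated values above 0 (median 0.03) against 51.5% of all genes. It had 14 of 30 club and secretory values above 0. By genotype, 50 of 79 ciliated values were above 0 in WT mice (median 0.05) and 33 of 79 in KO mice (median -0.04). Over all genes the shares were 50.7% and 51.0%. Of the 29 axoneme and apical genes, 19 were above 0 in WT mice (median 0.09) and 9 in KO mice (median -0.06). The club and secretory list had 14 of 30 in WT mice and 11 of 30 in KO mice.

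**Figure D3:**
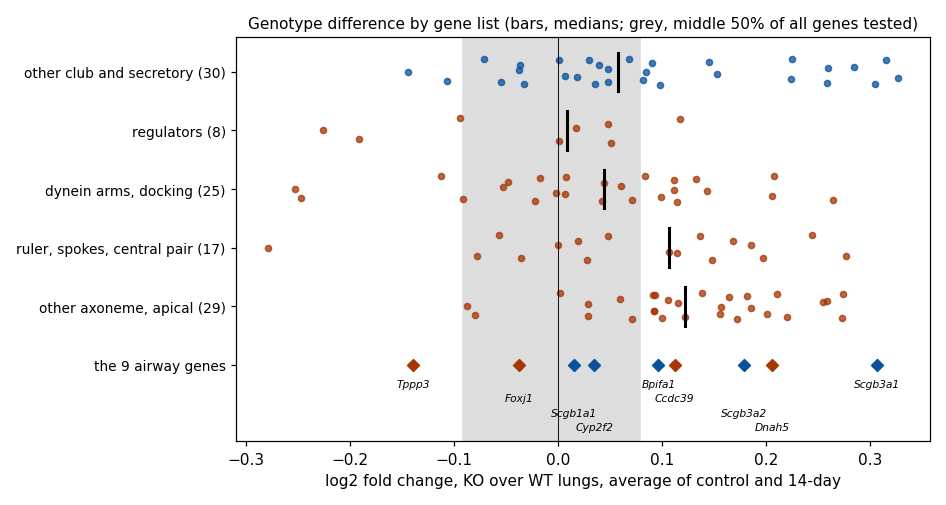
Log2 fold change of KO over WT lungs averaged over control and 14-day lungs (x axis) for the 9 genes (diamonds) and for each gene of the listed groups (points, bars at medians), with the middle part of all genes in grey. The 29 axoneme and apical genes lie mostly to the right, with a median of 0.12, while Tppp3 lies to the left of 0 (-0.14, and -0.075 with the GC offsets). Foxj1, also drawn to the left, turns to 0.071 with the GC offsets.

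Markers of other tissue also differed between the lungs. Of 6 cardiac muscle genes, Myh6, a myosin heavy chain of heart muscle, was lower in KO than in WT 14-day lungs. The log2 difference was -0.66 (SE 0.10, edgeR FDR 0.0031), and 5 of the 6 genes had a value below 0. Tnnt2 (-0.57, SE 0.12, FDR 0.071) and Tnni3 (-0.51, SE 0.11, FDR 0.072) also had an FDR under 0.25 there. In the genotype average 4 of the 6 had such an FDR, all lower in KO lungs. These were Myh6 (FDR 0.0136), Tnnt2 (0.065), Tnni3 (0.099) and Myl7 (0.227). The summed level of the 6 genes was 575 to 910 CPM in WT 14-day lungs and 447 to 559 in KO 14-day lungs. In the controls it was 583 to 718 CPM in WT and 446 to 600 in KO. The summed level of 6 smooth muscle genes was 492 to 574 CPM in WT and 570 to 651 in KO control lungs, and 501 to 619 in WT and 490.5 to 626.5 in KO 14-day lungs, and none of the 6 had an FDR under 0.25 in any lung comparison. The part of such tissue in the differences of the airway genes was not tested, beyond the correlations given next.

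The data also show which airway genes vary together from lung to lung within a group. The spread between lungs of a group was small for most members. On the log2 CPM scale the SD within groups was 0.11 for Scgb1a1, Cyp2f2 and Dnah5, 0.14 for Scgb3a2 and Tppp3, 0.17 for Ccdc39, 0.24 for Foxj1 and 0.29 for Scgb3a1, against a median of 0.21 over all genes. Bpifa1 stood apart with an SD of 1.51, the 37th largest of 16029 genes. It was at 17, 1.27, 53.2 and 35.6 CPM in the WT control lungs and at 19.6, 46.0, 23.7 and 62.8 in the KO control lungs. In the 14-day lungs it ran from 4.13 to 86.4 with a median of 32.6 in WT and from 5.78 to 74.0 with a median of 25.8 in KO. The highest lung was 41.8-fold above the lowest in WT control lungs, 20.9-fold in WT 14-day lungs and 12.8-fold in KO 14-day lungs. In KO control lungs the range was narrower (3.2-fold). The lowest of all, a WT control lung, had 7 counts of this gene.

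Of the 36 pairs of members, 6 had a correlation past an adjusted p of 0.05 in deviations from the group means (20 lungs, permutation within groups with 100000 resamples, two-sided, Benjamini-Hochberg over the 36 pairs). Scgb3a1 and Bpifa1 had r = 0.84 and rho = 0.87 (adjusted p = 0.0045 and 0.00252). Scgb1a1 and Scgb3a2 had r = 0.85 and rho = 0.81 (adjusted p = 0.0045 and 0.00588), and Scgb1a1 and Cyp2f2 had r = 0.71 and rho = 0.73 (0.0136 and 0.0109). Scgb3a2 also went with Bpifa1 (r = 0.64, rho = 0.69, adjusted p = 0.0131 and 0.0152) and with Cyp2f2 (r = 0.61, rho = 0.60, adjusted p = 0.0365 and 0.0705). The other 5 secretory pairs did not pass, with r from 0.35 (Scgb1a1 and Scgb3a1, rho = 0.39, adjusted p = 0.336 and 0.316) to 0.57 (Cyp2f2 and Bpifa1, rho = 0.52, adjusted p = 0.0745 and 0.145). With the GC trend removed, Scgb3a1 with Scgb3a2 passed (r = 0.59, adjusted p = 0.0437, from r = 0.54, rho = 0.59 and adjusted p = 0.0666 and 0.0705). On log2(FPKM + 1), Scgb3a2 with Cyp2f2 did not (r = 0.58, adjusted p = 0.0592). Without the 2 lungs farthest from the median of the first gene, and with group means taken over the remaining lungs, Scgb3a1 and Bpifa1 had r = 0.83 (adjusted p = 0.0104), and r = 0.80 around the means of all lungs. The other 5 pairs had r of 0.58 to 0.72 there and adjusted p of 0.107 to 0.209. The size of r changed little for Scgb3a2 with Bpifa1 (0.64 and 0.63) and more for Scgb1a1 with Scgb3a2 (0.85 and 0.72, or 0.74 around the means of all lungs).

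**Figure D4:**
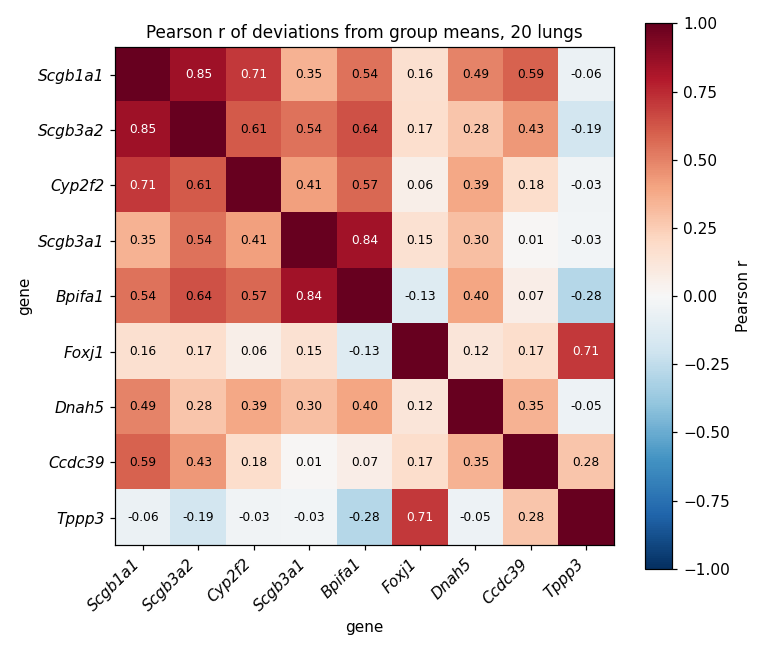
Pearson r between the 9 genes (both axes) of deviations from group means over 20 lungs, with the colour scale from -1 to 1. The highest values are those of Scgb1a1 with Scgb3a2 (0.85) and Scgb3a1 with Bpifa1 (0.84), and some secretory pairs, such as Scgb1a1 with Scgb3a1 (0.35), lie below Scgb1a1 with Ccdc39 (0.59).

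Of the 6 pairs of ciliated genes, 1 passed. Foxj1 and Tppp3 had r = 0.71 and rho = 0.77 (adjusted p = 0.0152 and 0.00588), but both followed the GC slope of the library (r = 0.59 and 0.74), and with the GC trend removed r was 0.57 (adjusted p = 0.0834). On log2(FPKM + 1) it was 0.49 (adjusted p = 0.154). Foxj1 had r = 0.12 with Dnah5 (rho = 0.13, adjusted p = 0.77 and 0.874) and r = 0.17 with Ccdc39 (rho = 0.10, adjusted p = 0.745 and 0.912). Between Dnah5 and Ccdc39, r was 0.35 (rho = 0.37, adjusted p = 0.464 and 0.343). With the GC trend removed, r was 0.33 for Foxj1 with Dnah5 (adjusted p = 0.333), 0.34 for Foxj1 with Ccdc39 (adjusted p = 0.401), and 0.56 for Tppp3 with Ccdc39 (adjusted p = 0.0664), which had r = 0.28 before (rho = 0.33, adjusted p = 0.464 and 0.375). The FPKM of Ccdc39 followed its CPM only loosely (r = 0.68), whereas all other members had r of 0.88 or more. Its FPKM ran from 6.21 to 15.48 over the lungs and its CPM from 14.5 to 23.4.

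**Figure D5:**
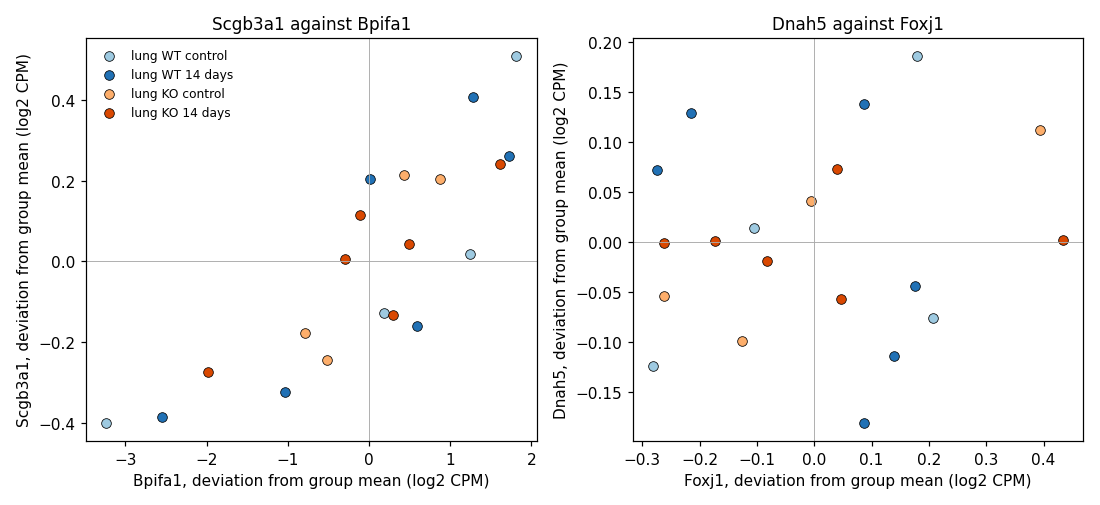
Deviations from group means in log2 CPM for 2 pairs of genes, 1 point per lung, coloured by group. Scgb3a1 rises with Bpifa1 over all 4 groups (r = 0.84), while Dnah5 against Foxj1 has r = 0.12, and 0.33 with the GC trend removed.

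Scgb3a1 and Bpifa1, the pair that held best, belong to different families and lie on different chromosomes. Scgb3a1 (ENSMUSG00000064057) lies on chromosome 11 of GRCm38, from 49663610 to 49665118 on the plus strand, and Bpifa1 (ENSMUSG00000027483) on chromosome 2, from 154142880 to 154149219 on the plus strand. The 250 bases before their RefSeq starts are shown because the genes vary together. They were copied from RefSeq (GRCm38.p6), with 5 of the 9 genes matched in the promoter table used here, and capitals mark CTTGAG, the reverse complement of the half-site CTCAAG that the lung factor NKX2-1 binds.
Scgb3a1, chr11:49663345-49663594, plus strand: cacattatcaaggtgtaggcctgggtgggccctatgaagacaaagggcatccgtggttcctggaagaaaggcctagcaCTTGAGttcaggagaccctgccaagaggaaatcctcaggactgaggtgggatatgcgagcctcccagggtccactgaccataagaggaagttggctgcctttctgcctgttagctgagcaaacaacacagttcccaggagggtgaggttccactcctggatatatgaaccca
Bpifa1, chr2:154142630-154142879, plus strand: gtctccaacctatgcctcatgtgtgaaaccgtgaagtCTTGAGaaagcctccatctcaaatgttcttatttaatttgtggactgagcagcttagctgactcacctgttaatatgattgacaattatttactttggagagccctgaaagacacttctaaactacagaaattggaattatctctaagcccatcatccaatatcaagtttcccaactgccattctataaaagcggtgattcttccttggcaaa
The match ends 167 bases before the RefSeq start in Scgb3a1 (49663595, upstream of the GENCODE start given above) and 208 bases before it in Bpifa1 (154142880), on the strand opposite to the gene in both. It was present on either strand in 13.3% of 32851 promoters of this length, and in 2 of the 5 members with a promoter. The letters TGTTTAC, bound by forkhead factors, are in 3.17% of promoters and in none of the 5, GTTGCC, a half-site of RFX factors, in 10.4% and none, and TTGCNNAA, bound by C/EBP factors, in 9.56% and in Dnah5 only. A match describes the letters and does not show binding. The Bpifa1 stretch has a GC content of 39.2% and that of Scgb3a1 53.6%, against a median of 52.4% over all promoters.

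The other members lie on separate chromosomes. Scgb1a1 (ENSMUSG00000024653) is on chromosome 19 from 9083636 to 9087958, Cyp2f2 (ENSMUSG00000052974) on chromosome 7 from 27119909 to 27133660, and Scgb3a2 (ENSMUSG00000038791) on chromosome 18. Dnah5 (ENSMUSG00000022262) covers 28203752 to 28472052 of chromosome 15, and Ccdc39 (ENSMUSG00000027676) 33812362 to 33844310 of chromosome 3. Foxj1 (ENSMUSG00000034227) shares chromosome 11 with Scgb3a1, from 116330704 to 116335399, and Tppp3 (ENSMUSG00000014846) lies on chromosome 8 from 105467493 to 105471526. None is on chromosome 4, which carries Clic4.

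The genes most like each of 3 members, by Pearson r over the 20 lungs, are named as a description with no p. For Bpifa1 they were Scgb3a1 (0.84), Dcn (decorin, a proteoglycan of connective tissue, 0.83), Ltf (lactoferrin, 0.82), Bpifb1, a relative of Bpifa1 (0.80), and Sult1d1, a sulfotransferase (0.80). Ltf ran from 17.1 to 74.8 CPM over lungs and Bpifb1 from 17.8 to 59.5. For Scgb1a1 they were Scgb3a2 (0.85), Clec2d, a lectin (0.83), Pon1, a paraoxonase (0.81), and Mybphl and Ryr2, which are expressed in heart muscle (0.80 for each). For Foxj1 they were Foxk1, She, Coro2b, Trim3 and Cdc42ep1 (0.86 to 0.92), none of them a listed ciliated cell gene. These 5 had r of 0.47 to 0.71 with the GC slope, and 0.66 to 0.83 with Foxj1 once the GC trend was removed.

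The members were also set against the mean deviation of whole gene lists (45 correlations, permutation within groups, two-sided), and 8 passed an adjusted p of 0.05 by r. Scgb3a2 (r = 0.74, rho = 0.66, adjusted p = 0.015 and 0.035), Bpifa1 (r = 0.66, rho = 0.64, adjusted p = 0.015 and 0.035) and Scgb3a1 (r = 0.61, rho = 0.58, adjusted p = 0.0187 and 0.035) went with the 30 other club and secretory genes. Without the 2 lungs farthest from each gene's median, around the means of all lungs here and for the other lists, r was 0.62, 0.70 and 0.49. Dnah5 went with the 79 other ciliated genes (r = 0.59, rho = 0.62, adjusted p = 0.0343 and 0.035, and r = 0.45 without the 2 farthest lungs). Foxj1 had r = 0.31 with them (rho = 0.18, adjusted p = 0.421 and 0.745), and Tppp3 r = 0.07 (rho = 0.06, adjusted p = 0.861 and 0.826).

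Scgb1a1 and Cyp2f2, both club cell genes, did not pass with the club and secretory list (r = 0.54 and 0.60, rho = 0.39 and 0.49, adjusted p = 0.102 and 0.0716 for r and 0.33 and 0.217 for rho, and r = 0.26 and 0.40 without the 2 farthest lungs). They had r = 0.70 and 0.73 with the ciliated list (rho = 0.70 and 0.75, adjusted p = 0.015 and 0.0187 for r and 0.025 for rho in both). Without the 2 farthest lungs r was 0.74 and 0.69. Scgb1a1 and Scgb3a2 had r = 0.61 with the 6 cardiac muscle genes (rho = 0.59 and 0.61, adjusted p = 0.0323 and 0.0187 for r), and r = 0.52 and 0.53 without the 2 farthest lungs. By rho alone, Scgb3a1 (0.60, adjusted p = 0.0466), Bpifa1 (0.61, adjusted p = 0.0466) and Ccdc39 (0.61, adjusted p = 0.035) also passed with this list. No member had a correlation past the limit with the 8 type 2 cell genes or the 6 smooth muscle genes. The part of the piece of tissue taken in these correlations was not tested.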

How the data were processed

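mRNA was sequenced from 32 samples of stranded libraries (20 lungs, 12 tumors). Per the labels, the authors aligned reads to mm10 with STAR and counted with RSEM, and the annotation release is not given in the sources used here. They deposited expected counts per gene as whole numbers, without normalization, and FPKM from RSEM, scaled for length and depth. Counts were tested with the quasi-likelihood test of edgeR 4.0.16 (R 4.3.3, TMM, filterByExpr), in 1 fit of the 20 lungs with 1 mean per group and 1 fit of the 12 14-day lungs with the 12 tumors, with Benjamini-Hochberg adjustment over all genes tested. No sample column was left unused. Calls in lungs needed an FDR under 0.25 and a 1.5-fold change (the interaction, the FDR alone). These are the limits the study gave for 14-day against control lungs within a genotype. They were carried over here to KO against WT lungs and to the averages. In lungs against tumors, calls needed an FDR under 0.05 and a 2-fold higher level. SEs are the log2 fold change over the root of F, and log2 CPM used a prior count of 2. On simulated counts for 14-day against control KO lungs (15853 genes, 200 changed 2-fold), 97.5% of changed genes were recovered with 13.3% false calls. Genes of very low level were not among the changed ones. Changes smaller than 2-fold, such as those near the 1.5-fold limit, were not simulated.

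Named are the 9 members, the 3 genes with the highest mean FPKM and up to 4 called genes of a list, and the 5 genes with the highest r to Scgb1a1, Bpifa1 and Foxj1. Other genes of a list were named after their values were seen. The members and lists were chosen with earlier results of these data known. Alternatives were DESeq2 1.42.0, RLE size factors, other filters and limits, compared groups alone, a replicate block and each sample left out. An FDR limit without a fold limit and GC offsets (loess, span 0.5, GC of the longest GENCODE M21 transcript) were added after seeing the data. Replicates are separate samples in the labels, and which are littermates is not given. Lungs with the same replicate number did not deviate together (r from -0.25 to 0.29), so the numbers were not used to pair samples. Gene positions are those of GENCODE M21. Correlations and figures were made with scipy 1.17.1 and matplotlib 3.10.9.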

Additional observations from a re-analysis of the deposited data

How the results depend on the processing

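The counts of called members were computed under 230 alternatives and 226 gave the same count, 0 of 9 in the 7 lung comparisons and 9 of 9 in lungs against tumors. With at least 10 counts in every sample, 1 of 9 was called in lungs against tumors, since the filter drops genes near 0 in tumors. An FDR under 0.25 without a fold limit gave 1 member in KO against WT control lungs, 1 in the tumor average and 2 in the genotype average. With a replicate block the count was again 0 of 9 in each lung comparison and 9 of 9 against tumors, and over all genes the block moved the calls in KO 14-day against control lungs from 42 to 129, in WT from 92 to 152, in the tumor average from 92 to 149 and in the interaction from 8 to 1. Calls over all genes also moved by over 1.5 times for KO against WT control lungs, from 37 to 5 with GC offsets, 7 without a filter and 246 with only the compared groups, for the interaction, from 8 to 100 with DESeq2 and 1 with GC offsets, for the 14-day comparisons, from 42 to 23 (KO) and from 92 to 51 (WT) with GC offsets and 58 (WT) without a filter, and for KO against WT 14-day lungs, from 34 to 18 with only the compared groups. At least 10 counts in every sample left 34 of 92 calls in the tumor average, 15 of 38 in the genotype average and 1465 of 3498 against tumors, where no filter gave 5644. The direction of Foxj1 turned with GC offsets in KO against WT control lungs (0.11), the genotype average (0.071) and the interaction (-0.087), and that of Tppp3 in the interaction (-0.022). With each sample left out in turn, every count of members past both limits stayed the same, while calls over all genes ranged from 2 to 60 and from 11 to 176 in the 14-day comparisons (KO, WT), from 22 to 52 in KO against WT 14-day lungs, from 2 to 92 in KO against WT control lungs, from 13 to 82 in the genotype average and from 1 to 127 in the interaction. Bpifa1 ranged from -0.77 to 0.073 in KO 14-day against control lungs (highest without KO control lung 4) and from -0.81 to 0.083 in KO against WT 14-day lungs (highest without WT 14-day lung 5), and Foxj1 from -0.11 to 0.0057 in the genotype average (highest without KO control lung 1). The number of pairs with a correlation past the limit was 6, and 1 without the 2 farthest lungs, 4 on log2(FPKM + 1) (Scgb3a2 with Cyp2f2 and Foxj1 with Tppp3 lost) and 6 with the GC trend removed (Scgb3a1 with Scgb3a2 gained, Foxj1 with Tppp3 lost). The SD of Ccdc39 was 0.17 on log2 CPM and 0.34 on log2(FPKM + 1), and that of Bpifa1 1.51 and 1.43. The cause of these shifts was not tested. At 7 to 490 counts per lung and this spread, Bpifa1 could not be read to within a 1.5-fold change.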
